A study of Gallus gallus with 2 samples.

Results

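The cells described here are the 440 that the authors named endoderm among 7750 cells from gastrula chicken embryos at HH5 (Hamburger-Hamilton staging). They were taken by the authors' class name, and they made up 5.68% of the cells (95% interval 5.17 to 6.22%). Whole embryos were dissociated with enzymes and processed as 1 preparation with the 10x Multiome assay, which yields an RNA library and an ATAC (chromatin accessibility) library from the same cells. There was no second preparation, treatment or stage, and the sources used here do not state how many embryos were pooled. Each cell has a pair of coordinates in an embedding built from both data types. The authors also gave 6681 cells an ATAC rank between 1 and 6681, with each rank used once. All 440 endoderm cells had a rank, and they were 6.59% of the ranked cells. None of the 498 extraembryonic endoderm cells and none of the 151 area opaca cells had one. The sources used here do not state what was ranked, or whether either end stands for a position such as anterior. A rank is therefore only called low or high.

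Embryonic endoderm is the germ layer that forms the lining of the gut and its organs. In the chick it arises from cells that leave through the primitive streak, insert into the lower layer and displace the hypoblast, while extraembryonic endoderm forms the lining of the yolk sac. SOX17 and FOXA2 are transcription factors that mark endoderm, and FOXA2 is also expressed in notochord. The class name rests on the authors' annotation and was not checked against these markers, since gene counts were not analysed here. All values below describe the cells of a single preparation, without replicates. Differences between groups of cells were therefore not tested, intervals cover counting error only, and correlations carry no p-value.

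Endoderm ranks were piled up at the very lowest end and had a long, uneven shoulder. The lowest endoderm rank was 1 and the highest was 4899. The median was 564.5 (95% binomial interval 444 to 723), the lower quartile was 155.5 and the upper quartile was 1783.75. The distance from the median to the upper quartile was 1219 ranks, against 409 to the lower quartile. The mean of 1026 was 1.82 times the median, the SD of 1051 slightly exceeded the mean, and the skewness was 0.96. On a log10 scale the skewness was -0.78, so the distribution was asymmetric in the other direction there.

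Among the 6681 ranked cells, which came from 13 of the 16 classes, the lowest ranks were mostly endoderm cells. Endoderm held 44 of the 50 lowest ranks (88.0%, 95% Clopper-Pearson interval 75.7 to 95.5%). The other 6 were neural ectoderm-1 cells. Of the 100 lowest ranks, 74 were endoderm and 24 were neural ectoderm-1. Among the 200 lowest, endoderm held 134 (67.0%, 60.0 to 73.5%) and neural ectoderm-1 held 61. Among the 500 lowest, endoderm held 207 (41.4%, 37.0 to 45.9%) and neural ectoderm-1 held 250. By count, the lead of endoderm was thus limited to the lowest of these ranges, but neural ectoderm-1 had 791 cells in all. As a share of each class, the 500 lowest ranks held 47.0% of endoderm and 31.6% of neural ectoderm-1. The 1000 lowest held 62.7% of endoderm and 66.8% of neural ectoderm-1. Each rank belongs to 1 cell, so the share of a class within a range also depends on how many cells of each class were captured. The same holds for the shape of the endoderm distribution and for all differences counted in ranks.

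In windows of 250 ranks, 155 endoderm cells (35.2%, 30.8 to 39.9%) lay in the first window and 52 (11.8%, 8.95 to 15.2%) in the second. The count per window fell to 16 and 15 between ranks 1001 and 1500. It was 20 in each of the windows between 1501 and 2000, and then 14 and 13 between 2001 and 2500. Between 2501 and 3000 it was 23 and 22, and above 3000 it dropped to 10, 6 and 3. In windows of 500 ranks the upper part of the shoulder showed as 45 cells between 2501 and 3000 (10.2%, 7.56 to 13.4%). The window below it held 27 cells (6.14%, 4.08 to 8.80%) and the window above it 16 (3.64%). The window between 1501 and 2000 held 40 cells (9.09%, 6.57 to 12.2%). The interval of the upper part overlapped that of the window below, and the difference between them was not tested. Only 8 of the 440 cells (1.82%, 0.788 to 3.55%) ranked above the middle rank of 3341, and 2 of them, at 4557 and 4899, stood apart from the third highest at 3693.

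**Figure D1:**
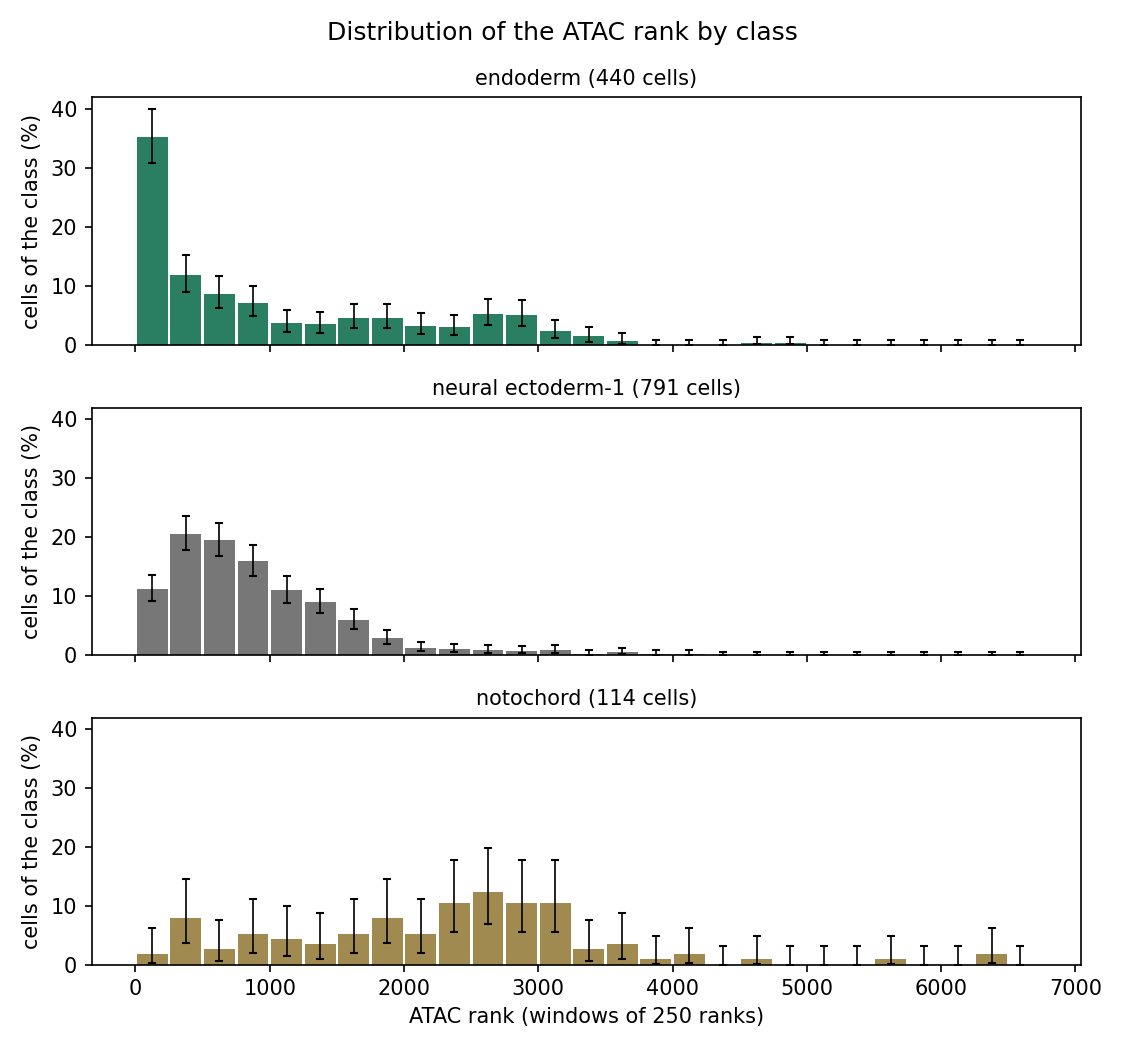
Percent of the cells of a class (vertical axis) in each window of 250 ATAC ranks (horizontal axis), for endoderm (440 cells), neural ectoderm-1 (791) and notochord (114); bars start at 0 and error bars are 95% Clopper-Pearson intervals, which cover counting error only. Endoderm has 35.2% of its cells in the lowest window and a low, uneven shoulder up to about rank 3500.

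Neural ectoderm-1 and notochord were the classes set beside endoderm, the first because it shares the low end of the rank and the second because it adjoins endoderm in the embedding. In endoderm the range between quartiles was 1628 ranks wide, against 760 ranks in neural ectoderm-1. The 5th percentile was 24.95 in endoderm and 150 in neural ectoderm-1, and the 95th percentile was 2988 in endoderm and 1982 in neural ectoderm-1. Endoderm thus extended past neural ectoderm-1 at both ends. The fullest 250-rank window was the first one in endoderm and the second one in neural ectoderm-1. The notochord, which is axial mesoderm, had its quartiles at 1444.75 and 2939.25, and its median of 2417.5 lay above the endoderm upper quartile. Its distance from the median was 522 ranks to the upper quartile and 973 to the lower quartile, against 1219 and 409 ranks in endoderm.

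Endoderm lay in the embedding as an arm along the first coordinate, between the notochord at its low end and the extraembryonic endoderm and area opaca at its high end. The median first coordinate was 7.92 in endoderm, 11.8 in extraembryonic endoderm, 11.8 in area opaca and 3.97 in notochord. On the second coordinate the median was -0.10 in endoderm, -0.69 in extraembryonic endoderm, 1.21 in area opaca and -0.70 in notochord. Moving from endoderm toward extraembryonic endoderm therefore means a higher first coordinate and a somewhat lower second coordinate. Of the 15 nearest cells of an endoderm cell, 97.0% were endoderm, 1.65% extraembryonic endoderm, 0.379% area opaca and 0.379% notochord. Mesoderm-4 and mesoderm-5 each supplied 0.227%, all around a pair of endoderm cells that lay far from the arm, and mesoderm-1 supplied 0.106%. Those endoderm cells, with ranks of 3571 and 1619, had no endoderm among their 15 nearest cells.

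**Figure D2:**
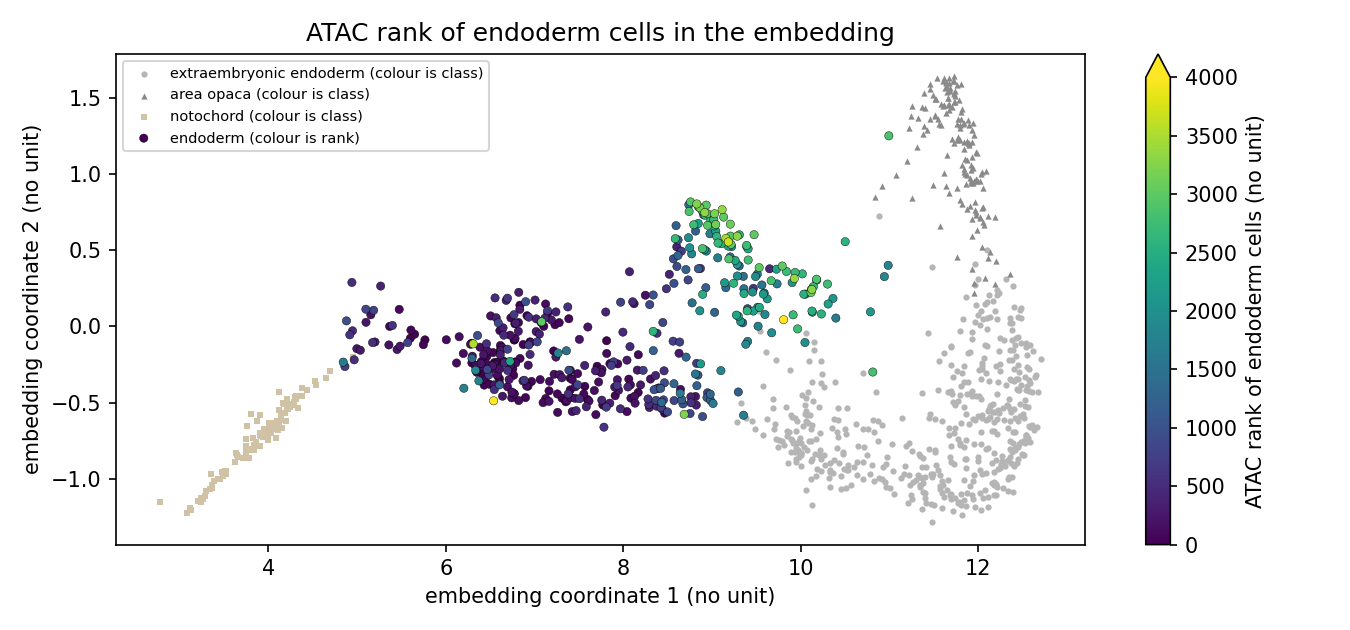
The arm of the embedding with both coordinates on the axes (no unit), with endoderm cells coloured by ATAC rank (the colour scale ends at 4000) and unranked extraembryonic endoderm and area opaca cells and notochord cells in plain colours; cells below a first coordinate of 2 are not drawn. Low endoderm ranks fill the stretch next to the notochord, and many ranks near 3000 lie in a lobe near 9 on the first and 0.7 on the second coordinate, while the single cells at 4899 and 4557 lie outside it.

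Along the first coordinate the median rank of endoderm cells was low in the first 5 bands and more than 2000 in the last 3, with the climb between them. The cells were divided by this coordinate into 10 bands of 44, numbered from the notochord end. The median rank was 245.5 in band 1, 159.5 in band 2, 152.5 in band 3, 174.5 in band 4 and 171 in band 5. It was 431.5 in band 6 and 976.5 in band 7. It was 2220 in band 8, 2200 in band 9 and 2463 in band 10. The binomial intervals of the medians of bands 2 to 5 overlapped one another, with limits from 71 to 285. Those of bands 8 to 10 also overlapped, with limits from 1663 to 2689. The intervals of band 6 (253 to 515) and band 7 (822 to 1242) overlapped neither each other nor those of bands 8 to 10. That of band 6 did overlap those of bands 1 (148 to 523), 3 and 4, but not those of bands 2 and 5.

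The overall correlation summarised this step. Across the 440 cells Spearman's rho of the rank with the first coordinate was 0.68, a value that hid very different stretches. In bands 1 to 5 (220 cells) rho was -0.12, in bands 6 to 8 (132 cells) it was 0.75, and in bands 8 to 10 (132 cells) it was 0.12. A straight line on the first coordinate took up 30.9% of the rank variance, and 45.2% without the pair of cells far from the arm. A single step placed where it took up most variance, at 8.67 on this coordinate, took up 59.4%, and the means of the 10 bands 62.2%. The 290 cells at or below that point had a median rank of 235 and the 150 above it a median of 2182.5. The place of the step was chosen on these ranks, so its share of variance is a description.

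**Figure D3:**
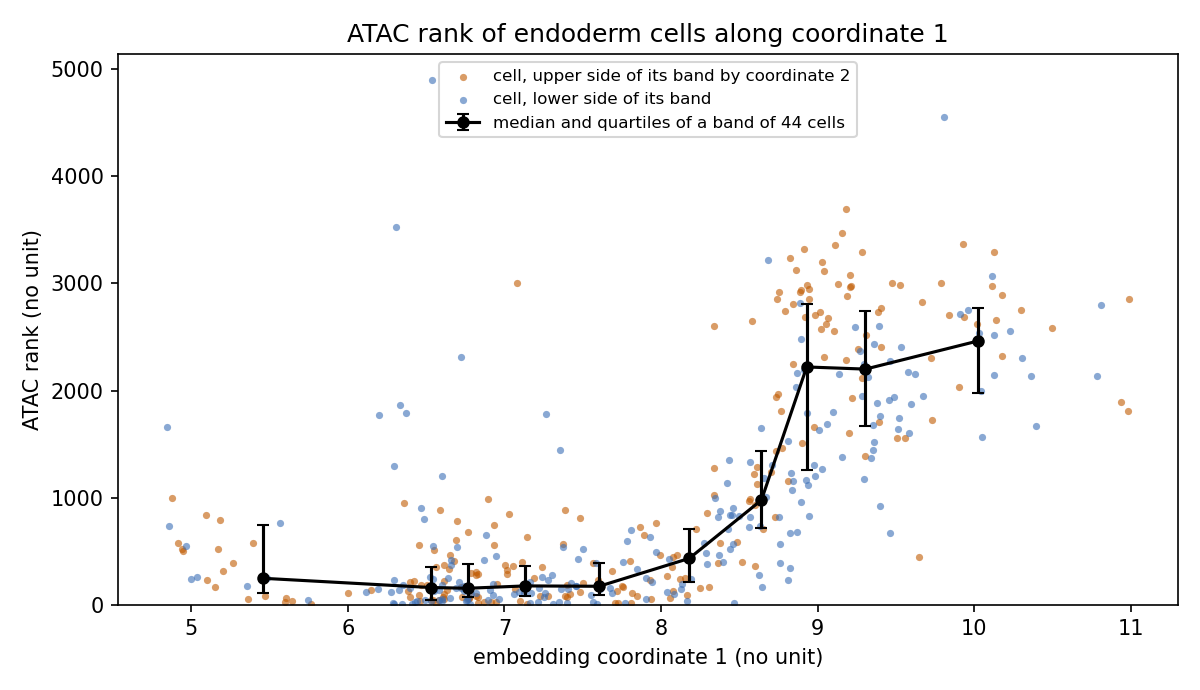
ATAC rank of each endoderm cell (vertical axis) against the first embedding coordinate (horizontal axis, no unit), with black points for the median and bars for the quartiles of 10 bands of 44 cells; orange cells lie on the upper and blue cells on the lower side of their band by the second coordinate, and the pair of cells far from the arm is not drawn. Medians stay between 152.5 and 245.5 in bands 1 to 5 and between 2200 and 2463 in bands 8 to 10.

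In steps of 0.25 on the first coordinate, the climb lay between about 8.25 and 9.25. The median rank was 212.5 for the 18 cells between 8 and 8.25, 764 for the 26 cells of the next step and 1131 for the 27 cells between 8.5 and 8.75. It was 1728.5 for the 42 cells between 8.75 and 9 and 2610 for the 26 cells between 9 and 9.25. Past this point the median was not level. It was lower again, at 2033 for the 28 cells between 9.25 and 9.5 and 1874 for the 15 cells between 9.5 and 9.75, whereas the 31 cells between 9.75 and 11 had a median of 2618. The binomial intervals of these last 2 medians (1606 to 2301 and 2308 to 2756) did not overlap. That of the step between 9 and 9.25 (2155 to 2981) overlapped those of both lower steps after it (1707 to 2389 and 1606 to 2301). The steps also differed in their median second coordinate. It was -0.41 between 8.25 and 8.5, 0.34 between 8.5 and 8.75 and 0.54 between 9 and 9.25. Past 9.25 it was 0.25, then 0.22 up to 9.75, and 0.24 between 9.75 and 11. The climb above 8.5 and the fall after it therefore cannot be told apart from position on the second coordinate. Of the 71 endoderm cells with ranks from 1001 to 2000, 9 lay below 8.25, 37 between 8.25 and 9.25 and 25 at 9.25 or more.

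The spread of ranks within a band was widest in band 8, at the top of the climb. The range between quartiles was 628 ranks in band 1 and between 282 and 308.5 ranks in bands 2 to 5. Band 1 holds the pair of cells far from the arm, but also arm cells ranked 1296, 1660, 1774, 1868 and 3532. The range was 497.5 in band 6, 719.5 in band 7 and 1546 in band 8. It was 1080 in band 9 and 786.5 in band 10. Ranks below 500 were found in 169 of the 220 cells of bands 1 to 5 and in 2 of the 132 cells of bands 8 to 10. Ranks above 2000 were found in 5 of those 220 and in 82 of those 132 cells.

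The second coordinate was most closely related to the rank in bands 8 and 9. Over all 440 endoderm cells Spearman's rho of rank and second coordinate was 0.57. It was 0.18 in bands 1 to 5 and 0.55 in bands 8 to 10. Within single bands, rho was between -0.07 and 0.37 in bands 1 to 6. It was 0.43 in band 7, 0.84 in band 8, 0.65 in band 9 and 0.18 in band 10. Band 8 held 1 endoderm cell with an extraembryonic endoderm cell among its 15 nearest, band 9 held 13 and band 10 held 23. The highest single ranks did not follow this pattern. Of the 5 highest, the cells ranked 4899, 3571 and 3532 lay in bands 1 and 2, the cell ranked 3571 being far from the arm, and those ranked 4557 and 3693 lay in bands 10 and 9.

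Each band was split at its median second coordinate into an upper and a lower side of 22 cells. In band 8 the median rank was 2768 on the upper side (quartiles 2584 and 2972.5) and 1250.5 on the lower side (quartiles 1082 and 1800), so the quartile ranges were disjoint. The upper cell outranked the lower cell in 94.0% of pairs there, where 50% means no difference. In band 9 the upper side had a median of 2754 and the lower side 1894.5, with the upper cell higher in 81.4% of pairs. In band 7 the medians were 1229 on the upper side and 823.5 on the lower side (71.7% of pairs), and in band 10 they were 2674.5 and 2164 (64.0%). In bands 1 to 6 the upper cell was higher in 44.2 to 65.1% of pairs, the last value being that of band 4, which exceeded that of band 10. On the upper side the medians of bands 8 to 10 were close together, while on the lower side the median was higher in each band from 7 to 10. Each band was split at its own median, so the lower side also shifted on the second coordinate. Its median there was -0.45 in band 7, -0.25 in band 8, 0.12 in band 9 and 0.09 in band 10.

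**Figure D4:**
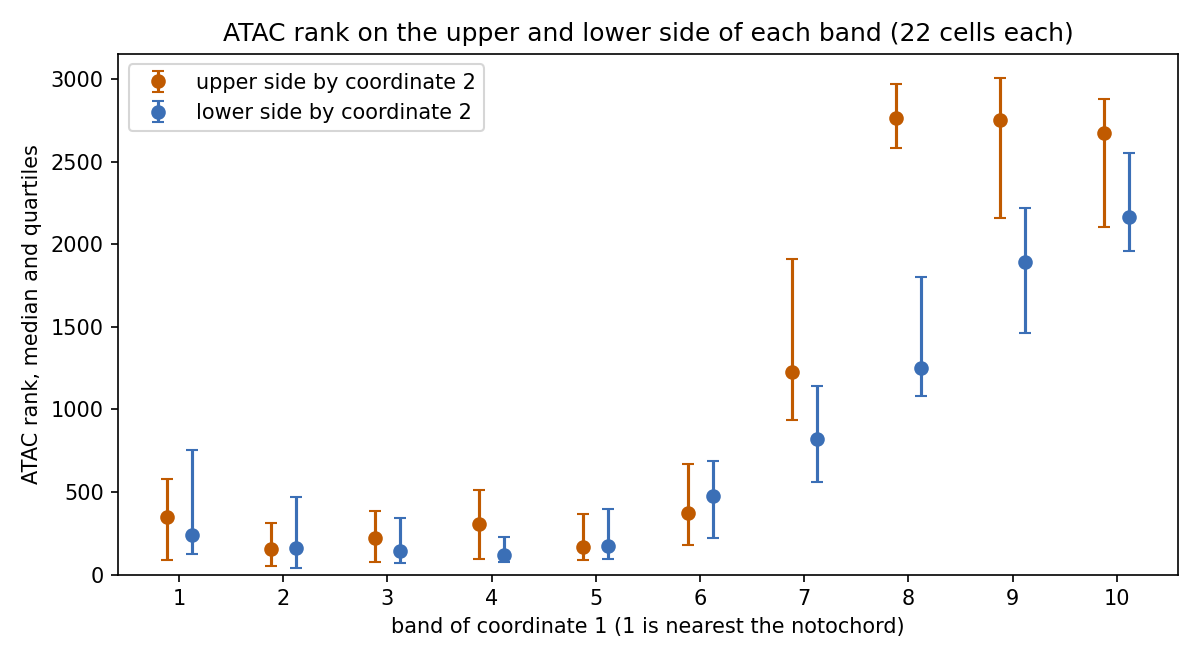
Median ATAC rank with quartiles (vertical axis) on the upper side (orange) and the lower side (blue) of each of 10 bands of the first coordinate (horizontal axis), 22 cells each. The sides lie farthest apart in band 8 (2768 on the upper and 1250.5 on the lower side), the only band in which their quartile ranges do not overlap.

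Pooled over bands 7 to 10, the 88 upper cells had a median rank of 2620 (binomial interval 2301 to 2735) and the 88 lower cells a median of 1643.5 (1328 to 1879). Ranks above 2000 were held by 58 of the upper and 29 of the lower cells. The upper part of the shoulder of the distribution came from the same place. Of the 45 endoderm cells ranked between 2501 and 3000, 44 lay in bands 7 to 10, 35 of them on the upper side. The lower part of the shoulder lay more on the lower side. In bands 7 to 10, ranks from 1001 to 2000 were held by 21 upper and 37 lower cells. Ranks from 2001 to 2500 were held there by 9 upper and 17 lower cells, and ranks above 3000 by 14 and 3. When the 176 cells of these bands were ordered by the second coordinate and divided into 4 groups of 44, the median rank was 1147 in the lowest group, then 2151, then 1932.5, and 2827.5 in the highest group. The highest group, with second coordinates from 0.53 to 1.25, had a narrow range between quartiles of 2567 to 3001. Only 1 of its 44 cells had an extraembryonic endoderm cell among its 15 nearest cells.

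Rank therefore did not simply become higher toward the extraembryonic endoderm. With the embedding distance to the nearest extraembryonic endoderm cell, the rank had a Spearman's rho of -0.65 over the 440 cells, so cells nearer to it had higher ranks. In 10 bands of this distance, the 3 nearest had median ranks of 2058, 2124 and 2095.5, with overlapping intervals. The next had 1200.5 and the one after it 431.5. The remaining 5, at distances of 1.44 and more, had medians between 145 and 254. Within bands 7 to 10 rho was -0.09, and within bands 8 to 10 it was 0.33, so that there the cells farther from extraembryonic endoderm had the higher ranks. With band 6 added to bands 7 to 10 it was -0.46, so the sign depended on the bands taken. Band 6 of the first coordinate had a median rank of 431.5 and a median distance of 1.17. Distances in such an embedding are not distances in the embryo, and extraembryonic endoderm had no ranks with which to continue the series.

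**Figure D5:**
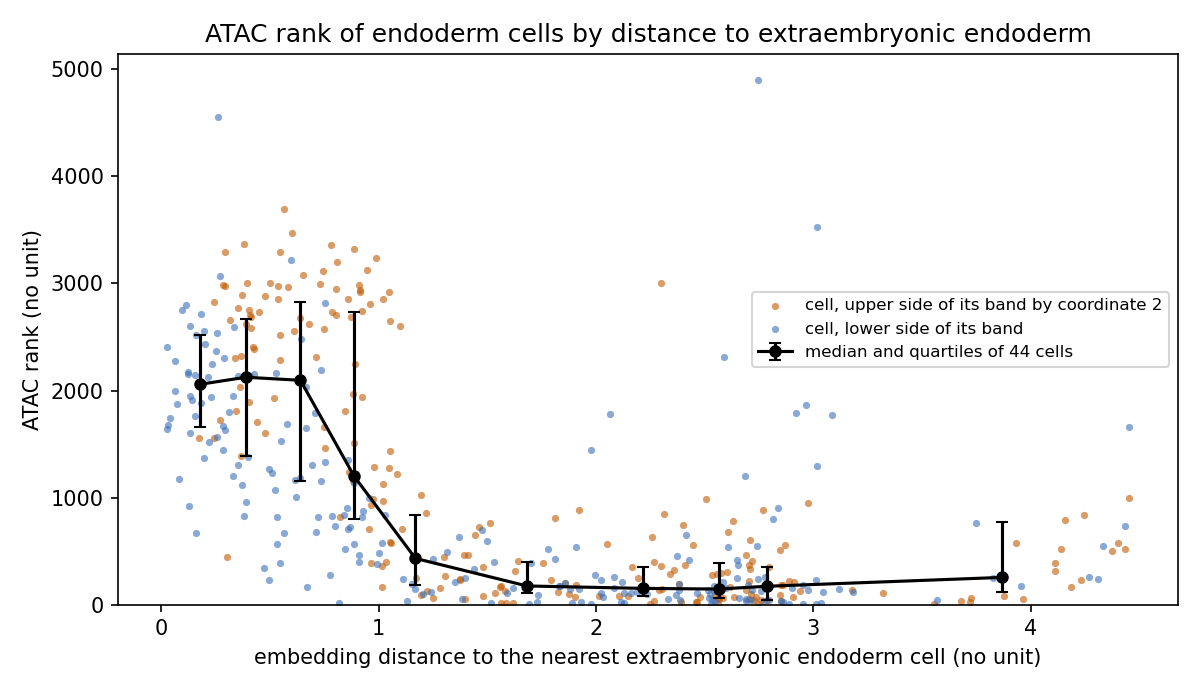
ATAC rank of each endoderm cell (vertical axis) against its embedding distance to the nearest extraembryonic endoderm cell (horizontal axis, no unit), with black points for the median and bars for the quartiles of 10 groups of 44 cells; orange cells lie on the upper and blue cells on the lower side of their band, and the pair of cells far from the arm is not drawn. The 3 nearest groups have medians of 2058, 2124 and 2095.5, and the cells near rank 3000 are mostly orange.

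All 37 endoderm cells with an extraembryonic endoderm cell among their 15 nearest lay in bands 7 to 10. Their median rank was 1993 (binomial interval 1805 to 2175), against 1970 (1630 to 2370) for the other 139 cells of these bands. Ranks above 2000 were held by 18 of these 37 border cells and by 69 of those 139 cells. In bands 8 to 10, border cells included, 82 of all 132 cells had such ranks. In band 9 they were held by 25 of 44 cells and in band 10 by 32 of 44, again with border cells included. Band 7 held 0 border cells and band 8 held 1. The other 139 therefore included all 44 cells of band 7, whose median was 976.5. The near-equal medians of the border cells and the other cells thus do not compare cells at matched positions. The other cells were themselves divided, with a median of 2657 for the 84 on the upper side and 1230 for the 55 on the lower side, so the median of the border cells lay between them. Of these border cells, 33 were on the lower side, and the median over all 37 exceeded that of the 55 other lower cells. Those 55 included all 22 lower cells of band 7 (median 823.5), while 13 border cells lay in band 9 and 23 in band 10. Lower-side medians were higher in each band from 7 to 10. The median second coordinate was 0.09 for the border cells and -0.24 for those 55 cells. The contrast between them therefore cannot be told apart from position on either coordinate. None of the border cells ranked below 500. The 50 highest endoderm ranks, from 2690 to 4899, included 4 border cells and 46 cells of bands 7 to 10. Their median position was 9.14 on the first and 0.58 on the second coordinate. The 50 lowest ranks, from 1 to 57, included no border cell and 47 cells of bands 1 to 5, with a median position of 6.77 and -0.25. The 4 endoderm cells beside area opaca ranked between 1805 and 2853.

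A plane fitted to the rank on both coordinates accounted for 59.3% of its variance across endoderm cells, and a fit with squares and the product of the coordinates for 65.2%. In neural ectoderm-1 the plane accounted for 11.2% and in notochord for 7.25%, or 10.2% without 3 notochord cells far from their arm. Nearby cells had related ranks in all 3 classes, in an embedding that was itself built in part from ATAC data. Spearman's rho with the median over the 15 nearest cells of the class was 0.77 for endoderm, 0.37 for neural ectoderm-1 and 0.60 for notochord. The plane rose by 325 ranks per unit of the first and by 1400 ranks per unit of the second coordinate. Scaled by the SD of the coordinates in endoderm (1.48 and 0.41), these were 481 and 570 ranks. Without the pair of cells far from the arm they were 508 and 451 ranks, so which coordinate had the steeper scaled slope depended on those cells. The direction of steepest rise stood at 76.9 degrees to the first axis, while the line from the endoderm median to the extraembryonic endoderm median stood at -8.60 degrees and that to the area opaca median at 18.7 degrees. The angle between the rise and the direction of extraembryonic endoderm was 85.5 degrees, and 81.3 degrees without the pair of cells far from the arm. The angle depends on the relative scale of the axes, which the embedding does not fix by any measured length.

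At the notochord end the rank was slightly higher than in the middle of the low stretch. The 28 endoderm cells of the arm with a first coordinate below 6 had a median of 286 (binomial interval 173 to 544), and the 197 between 6 and 8 had a median of 164 (136 to 200). Among those 28 cells Spearman's rho of rank and first coordinate was -0.70, so the cells nearest the notochord had the higher ranks. The 13 endoderm cells with a notochord cell among their 15 nearest had a median of 523, with a lowest rank of 233 and a highest of 1660. On the notochord side, the 3 cells with endoderm among their nearest had ranks with a lowest of 68 and a highest of 681, and the other 111 notochord cells had a median of 2452.

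The rank of an endoderm cell was set against the median over its 15 nearest endoderm cells, and Spearman's rho was 0.77 over all 440, 0.20 in bands 1 to 5, 0.78 in bands 6 to 8 and 0.47 in bands 9 and 10. In bands 1 to 5 the range between quartiles was 343.75 ranks, with single ranks up to 4899. The median absolute difference from the nearest cells was 117 ranks there, against 405.5 in bands 9 and 10. Over the class, 22 cells ranked more than 1000 above their nearest cells and 9 more than 1000 below. In bands 1 to 5 these counts were 14 and 0, where a fall of that size was hardly possible because the ranks there were near the lowest. In bands 6 to 10 the counts were 8 above and 9 below. The widest gap was that of the endoderm cell ranked 4899, whose 15 nearest endoderm cells had a median of 132. All 15 of its nearest cells of any class were endoderm. Depth and doublets were not analysed here, so their part in these gaps was not tested.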

How the data were processed

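The authors deposited a table with a row per cell. Per the file headers its columns are an ATAC rank, a class name and both axes of a weighted nearest neighbour UMAP. Coordinates and ranks were treated as deposited scores with no unit. The genome build was galGal6 and the tools were Signac 1.8.0, Seurat 4.3.0 and Cell Ranger ARC 2.0.0, per the submitters' processing notes. The sources used here do not state settings, cell filters, doublet removal or how classes were named. No barcode was used more than once. Counts per cell were not analysed here, so depth is unknown. The embedding was built from both data types, including the ATAC data for which the rank is named, and the classes may rest on them too. Relations of the rank with position or class are therefore not between independent measurements.

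The members and summaries were chosen with earlier results of these data known. SOX17 and FOXA2 were named only as background, because the table used holds no gene values. The rule for named classes took endoderm, extraembryonic endoderm, area opaca, notochord, neural ectoderm-1 and any class among the 15 nearest cells. Medians, quartiles, binomial 95% intervals and Spearman's rho were computed over cells, and nearest cells were found by Euclidean distance. Bands, sides, steps and rank windows were chosen after the data were seen. Functions were tested on simulated data. Alternatives were Pearson and partial correlations, other distances and numbers of nearest cells, and subsets of cells. The computations used scikit-learn 1.9.0, SciPy 1.17.1, pandas 2.3.3 and Python 3.11.15.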

Additional observations from a re-analysis of the deposited data

How the results depend on the processing

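Of 37 alternative values, 28 stayed within the binomial interval of the value reported or, for correlations and shares of variance, within 0.1 or 10 percentage points of it. With the mean in place of the median, the level of endoderm was 1026 ranks. The Pearson value was 0.56 for the first coordinate and -0.52 for the distance to the nearest extraembryonic endoderm cell. Without the pair of cells far from the arm, the Pearson value for the first coordinate was 0.67. For the second coordinate, the partial Spearman value given the first was 0.44. With 50 nearest cells, 94.4% were endoderm. Within bands 7 to 10 the sign of the relation of rank and distance to extraembryonic endoderm depended on the distance used. It was -0.09 as reported, -0.30 by distance to the median position and 0.012 by the mean distance to the 15 nearest cells. It also depended on the bands taken, with 0.33 in bands 8 to 10 and -0.46 in bands 6 to 10. The cause was not tested. The difference between upper and lower sides in bands 7 to 10 was 976.5 ranks with 10 bands, 1019 with 5 and 961.5 with 20. These choices of bands, and leaving out the cells far from the arm, were added after seeing the data. The upper part of the shoulder depended on the window. In windows of 200 ranks it held 18 and 19 cells between ranks 2601 and 3000, against 12 in the window below, but 19 cells also lay between 1601 and 1800. In windows of 300 ranks there were 28 cells between 2701 and 3000, against 21 in the window below and 25 between 1501 and 1800. No paired analysis was possible because there was 1 preparation and no second group of samples. Depth per cell is unknown.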
